A study of Mus musculus with 5 samples.

Results

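The cells described here are single mouse hepatocytes at the upper and the lower end of a score of 8 immediate early genes: Jun, Junb, Fos, Egr1, Ier2, Dusp1, Zfp36 and Atf3. They were chosen by their own expression. The score of a cell is the sum of the UMIs (unique molecular identifiers, each marking 1 captured mRNA molecule) of the 8 genes per 10000 UMIs of that cell, cells were ranked within their mouse and divided into 3 tiers of equal size (any odd cells go to the middle), and the high tier was set against the low tier. The high tier holds 149 cells and the low tier 149 cells, of 449 ranked cells and 454 cells in all. By mouse, the high and the low tier each hold 69 cells in HFD2, 8 cells in HFD3, 44 cells in LFD1 and 28 cells in LFD2. Mice are named by diet and number, and HFD1, with 5 cells, lies outside the ranking.

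Hepatocytes came from male C57BL/6J littermates that were 8 weeks old at the start and then ate a high fat diet (HFD, 3 mice) or a regular chow diet (LFD, 2 mice) for 12 weeks. The labels name no engineered allele, and each mouse gave 1 Drop-seq library, a droplet method that reads the 3′ ends of mRNAs. The series asks how hepatocyte transcriptomes respond to the high fat diet, and the ranking asks which other transcripts go with the immediate early genes within each animal and diet.

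Immediate early genes are switched on within minutes of a growth factor, a stress or a hormone, from transcription factors already present in the cell and without new protein synthesis. Jun, Junb, Fos and Atf3 encode leucine zipper proteins that pair into AP-1 and related dimers, Egr1 encodes a zinc finger transcription factor, and Ier2 encodes a nuclear protein of the same rapid response. Dusp1 and Zfp36 act as brakes: DUSP1 is a phosphatase that inactivates MAP kinases, and ZFP36 binds AU-rich mRNAs and speeds their decay. In liver these genes are known for their induction after partial hepatectomy, by fasting hormones and by the dissociation of the tissue into single cells.

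The promoters of these genes are known for short elements that signalling pathways act on, and 3 are printed because they hold the longest or the most matches. RefSeq windows (GRCm38.p6, the same assembly as mm10) from 250 bases before to 50 bases after the transcription start were matched for 6 of the 8 genes: Jun, Junb, Fos, Dusp1, Zfp36 and Atf3. Both strands were searched for TGACGTCA, the full cAMP response element, for TGACG, its first part (which every TGACGTCA also holds), for the CArG box bound by serum response factor, for TATAAA and for TGANTCA, the AP-1 site. Capitals mark the matches, and each sequence runs 5′ to 3′ on the gene's own strand.
Dusp1: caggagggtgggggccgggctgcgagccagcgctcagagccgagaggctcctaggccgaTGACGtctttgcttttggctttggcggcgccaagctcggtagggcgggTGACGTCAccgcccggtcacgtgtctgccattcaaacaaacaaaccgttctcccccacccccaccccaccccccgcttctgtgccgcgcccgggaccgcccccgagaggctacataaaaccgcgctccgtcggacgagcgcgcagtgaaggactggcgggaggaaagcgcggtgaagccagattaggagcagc
Zfp36: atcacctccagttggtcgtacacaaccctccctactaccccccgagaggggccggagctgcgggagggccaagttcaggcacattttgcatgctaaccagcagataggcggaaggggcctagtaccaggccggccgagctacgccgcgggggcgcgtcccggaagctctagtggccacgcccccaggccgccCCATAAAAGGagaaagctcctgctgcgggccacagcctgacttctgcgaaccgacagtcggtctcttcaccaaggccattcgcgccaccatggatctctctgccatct
Fos: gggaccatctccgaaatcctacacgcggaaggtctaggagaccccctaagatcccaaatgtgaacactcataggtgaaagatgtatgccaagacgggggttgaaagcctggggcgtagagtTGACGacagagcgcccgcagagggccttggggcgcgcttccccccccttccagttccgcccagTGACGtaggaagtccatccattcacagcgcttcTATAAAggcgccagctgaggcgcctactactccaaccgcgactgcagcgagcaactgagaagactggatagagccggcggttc
The Dusp1 window is chr17:26508423-26508722 on the minus strand, the Zfp36 window chr7:28379179-28379478 on the minus strand and the Fos window chr12:85473640-85473939 on the plus strand. The Dusp1 window holds TGACGTCA, first base 143 bases before the start, and a further TGACG 191 bases before it. TGACGTCA stood in 1 of the 6 windows and in 1.79% of all 32851 windows of the same length. The Zfp36 window holds a CArG box 58 bases before the start, in 1 of the 6 windows and in 1.63% of all windows. The Fos window holds TGACG 129 and 66 bases before the start and TATAAA 33 bases before it. TGACG was in 4 of the 6 windows against 20.8% of all windows, TATAAA in 2 of 6 against 13.6%, and TGANTCA in 0 of 6 against 7.81%. A match is a description of the letters and says nothing of binding in these cells.

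The ranking set apart cells that differed widely in the score, and the values of this paragraph are those the rule used, given with no test. The score had a median of 17.3 in the high tier of HFD2, 18.4 in HFD3, 7.61 in LFD1 and 5.85 in LFD2. The highest scores of single cells were 62.7, 36.6, 26.8 and 32.4 in the same mice. In the low tier the median was 0 in every mouse. The lowest score inside the high tier and the highest just below it were 10.97 and 10.91 in HFD2, 12.5 and 10.3 in HFD3, 4.33 and 4.25 in LFD1, and 3.60 and 3.21 in LFD2. So the edge between high and middle is narrow in 3 mice, and the high tier is the upper part of a continuous range, not a separate class of cells. At the lower edge, the low tier held only cells with none of the 8 transcripts in HFD3, LFD1 and LFD2, and 40 such cells among 69 in HFD2. A further 1, 11 and 10 cells with a score of 0 fell into the middle in HFD3, LFD1 and LFD2, because ties follow the order of columns. In those 3 mice the low tier is therefore a subset of the zero cells, set by column order, and column order went with depth (Spearman rho with UMIs per cell of -0.40 in HFD2, -0.18 in HFD3, -0.46 in LFD1 and -0.43 in LFD2).

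**Figure D1:**
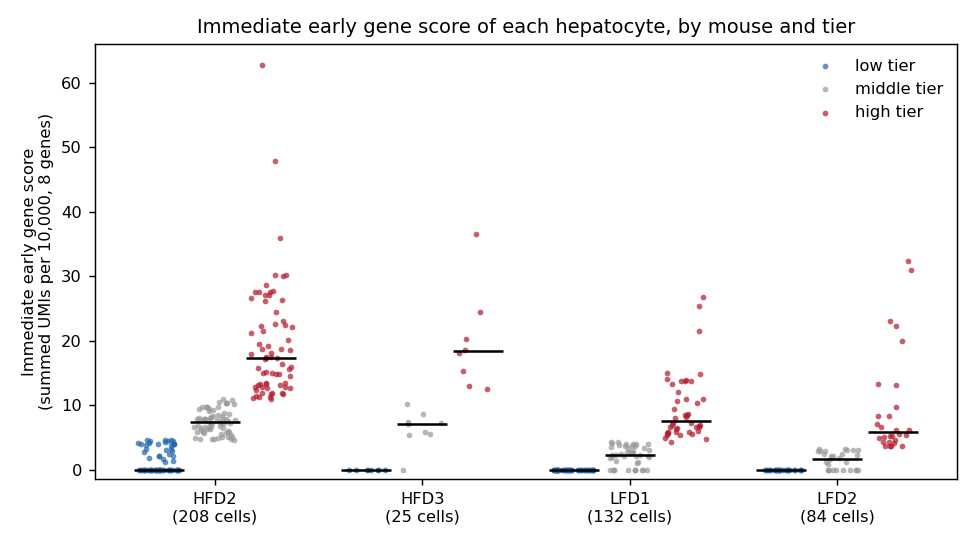
Immediate early gene score of each ranked hepatocyte (y axis, summed UMIs per 10000 UMIs for 8 genes) by mouse and tier (x axis), with black bars at the medians. The high tiers begin at 10.97 in HFD2 and at 12.5 in HFD3, against 4.33 in LFD1 and 3.60 in LFD2, and the points form a continuous range.

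Jun carried more of the score than any other of the 8 genes, with 320 of 854 score UMIs (37.5%) in the ranked mice. In the high tier it had 122 UMIs in HFD2, 12 in HFD3, 48 in LFD1 and 28 in LFD2, against 11, 0, 0 and 0 in the low tier. Zfp36 followed with 106 UMIs, Ier2 with 105, Dusp1 with 99, Egr1 with 87, Junb with 82, Fos with 43 and Atf3 with 12. Since the totals are small, a score rests on few molecules: 343 score UMIs in 69 high cells of HFD2, 32 in 8 cells of HFD3, 121 in 44 cells of LFD1 and 76 in 28 cells of LFD2. Cells with 3 or more of the 8 genes made up 26.4% of HFD2, 16.0% of HFD3, 12.9% of LFD1 and 10.7% of LFD2. Like Jun, Dusp1 and Zfp36 are part of the score, so their counts by tier follow from the ranking and are given with no test. They were found in 27 and 23 of the 69 high cells of HFD2, against 7 and 7 of its 69 low cells. In the high tiers of the other mice they were found in 5 and 4 of 8 cells (HFD3), 6 and 11 of 44 (LFD1) and 4 and 11 of 28 (LFD2).

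The score itself was higher in both ranked HFD mice than in both LFD mice, a level that ranking within mice does not use. The 8 genes together had 824 CPM (UMIs per 1000000 UMIs of the mouse) in HFD2 and 787 CPM in HFD3, against 371 CPM in LFD1 and 327 CPM in LFD2. The diets did not overlap, and the mean of the HFD mice was 2.31 times that of the LFD mice (two-sided exact permutation test, p = 0.333, the smallest p that 2 against 2 mice allow). HFD1, outside the ranking, had 251 CPM from 7 score UMIs, below all 4 ranked mice. As a description of the ranks, a score of 10.97, the edge of the high tier in HFD2, was reached by 32.0% of cells in HFD3 (8 of 25, exact 95% binomial interval over cells 14.9 to 53.5%), against 9.85% in LFD1 (13 of 132, interval 5.35 to 16.3%) and 8.33% in LFD2 (7 of 84, interval 3.42 to 16.4%). The share of HFD2 itself, 69 of 208, is set by the ranking. A score of 4.33, the edge of the high tier in LFD1, was reached by 70.2% of cells in HFD2 (146 of 208, interval 63.5 to 76.3%) and 64.0% in HFD3 (16 of 25, interval 42.5 to 82.0%), against 27.4% in LFD2 (23 of 84, interval 18.2 to 38.2%), with the share of LFD1 set by the ranking. Most high cells of the LFD mice thus lay below the HFD2 edge, and these intervals compare cells, not mice. Cells with a score of 0 were 19.2% and 36.0% in HFD2 and HFD3, against 41.7% and 45.2% in LFD1 and LFD2. Thinned to 1000 UMIs per cell, with 2, 1, 0 and 1 shallower cells left out, the shares were 46.1% and 54.2% in the HFD mice, against 75.8% and 80.7% in the LFD mice. Dusp1 stood at 108 and 188 CPM in HFD2 and HFD3, against 17.9 and 29.1 CPM in LFD1 and LFD2. Jun stood at 312 and 325 CPM in HFD2 and HFD3, against 137 and 113 CPM in LFD1 and LFD2. The raw-read name of HFD3 has another form than those of the other mice. A separate sequencing run is only inferred from that name and is not stated by the labels. If there was one, it cannot be told apart from the mouse.

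High and low tiers were both hepatocytes by their markers. The 8 hepatocyte markers (such as Alb and Apoa1) summed to 154779 to 193265 CPM in the high tiers and 156138 to 205470 CPM in the low tiers. The 10 macrophage markers summed to at most 45.0 CPM (7 of 10 seen) in the high and 24.3 CPM (5 of 10 seen) in the low tiers, with Adgre1 and Lyz2 at 0 in both, and the 10 sinusoidal endothelial markers to at most 47.9 CPM in the high and 85.9 CPM in the low tiers, with Cldn5 and Pecam1 at 0 in both. Cells holding at least 3 UMIs from any list of another cell type numbered 5, 0, 4 and 2 in the high tiers of HFD2, HFD3, LFD1 and LFD2, against 4, 0, 1 and 3 in the low tiers. The 7 cholangiocyte markers summed to 110 to 203 CPM in the high and 85.9 to 205 CPM in the low tiers (Epcam, Krt19, Krt7 and Cldn7 at 0 in both), and the 6 erythroid markers to at most 125 CPM in the high and 344 CPM in the low tiers. Stellate, T or NK, B, neutrophil and cycling lists reached at most 67.6 CPM in any high and 85.9 CPM in any low tier. No library of another cell type was at hand to read the level of free RNA. Median depth differed between the tiers in opposite directions by diet, though not between cells with and without a score. The median cell of the high tier had 1915 UMIs in HFD2 and 1607.5 in HFD3, against 2487 and 2448 in the low tier. In LFD1 and LFD2 it had 2404.5 and 2917.5 UMIs in the high tier, against 2143.5 and 2548 in the low tier. Cells with a score of 0 were shallower at the median than cells above 0 in every ranked mouse. Their medians were 1988.5 against 2251.5 UMIs in HFD2 and 1649 against 1906 in HFD3. In LFD1 they were 1998 against 2964, and in LFD2 2151 against 3427.5. The mean log2 ratio of high over low was -0.16 (two-sided exact sign-flip permutation test over 4 mice, which does not compare the diets, p = 0.5, smallest possible p 0.125). It was -0.05 with tied cells in reverse column order, -0.01 without HFD3 and 0.15 with a split at the median. Reversing the ties left the ratio at -0.38 in HFD2 and -0.61 in HFD3, and gave 0.32 in LFD1 and 0.48 in LFD2, against 0.17 and 0.20 in the original order. Mitochondrial transcripts took 5.64%, 7.20%, 5.39% and 5.52% of UMIs in the high tiers of HFD2, HFD3, LFD1 and LFD2, against 5.61%, 4.59%, 5.56% and 5.43% in the low tiers. HFD3 stands apart in that share, and with 14802 UMIs in its high tier it is the smallest of the sums.

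Whether the 8 genes go together in the same cells was asked with each gene left out in turn, ranking cells by the other 7. The gene tested then has no part in choosing the cells. All 8 genes had a fitted fold change above 0, 2 of the 8 passed an adjusted p of 0.05 (limma voom on UMIs summed per mouse and tier, mouse as a block, adjusted over all genes of that fit) and 7 of the 8 had an unadjusted p under 0.05. In the fits of Jun and Egr1, the share of all genes called was 0.075% and 0.0784%, in each case the gene itself, and in the other 6 fits it was 0%. Only Jun passed the filter on low levels, and the other 7 were kept in their fit whatever their level.

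Jun, the most abundant of the 8, was higher in the high tier of all 4 mice when Jun itself was not used. It had 471 CPM in HFD2, 517 in HFD3, 212 in LFD1 and 224 in LFD2 in the high tier, against 194, 234, 87.0 and 69.9 CPM in the low tier. All 4 mice were higher in the high tier by a like ratio, and the groups overlap, since the low tiers of the HFD mice lie near the high tiers of the LFD mice. Its log2 fold change was 1.29 (SE 0.24, adjusted p = 0.0205). Jun was seen in 41 of 69 high cells and 29 of 69 low cells of HFD2, and in 16 of 44 high cells and 11 of 44 low cells of LFD1. Egr1 had 164, 67.6, 120 and 86.3 CPM in the high tiers of HFD2, HFD3, LFD1 and LFD2, against 47.7, 0, 24.0 and 0 CPM in the low tiers. The groups do not overlap, but the high value of HFD3 is 1 UMI in 1 of 8 cells, so there this rests on a single molecule. The log2 fold change of Egr1 was 2.22 (SE 0.43, adjusted p = 0.00817), from 56 UMIs in the high and 14 in the low tiers. Over 6 alternatives Jun stayed between 1.24 and 1.53 and was called in 2, and Egr1 stayed between 1.85 and 2.70 and was called in 1. Without HFD2, HFD3, LFD1 or LFD2, Jun had an adjusted p of 0.983, 6.81e-04, 0.299 or 0.0626 and Egr1 of 0.411, 0.0979, 0.0867 or 0.0738.

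The other 6 score genes did not pass. Zfp36 had 107, 254, 72.1 and 93.2 CPM in the high tiers of HFD2, HFD3, LFD1 and LFD2, against 53.8, 0, 37.5 and 31.1 CPM in the low tiers, with no overlap (log2 fold change 1.33, SE 0.41, adjusted p = 0.894). Dusp1 had 158, 451, 23.7 and 31.5 CPM in the same high tiers, against 75.2, 0, 16.1 and 12.1 CPM in the low tiers (1.33, SE 0.44, adjusted p = 0.900). Both brakes were above their low tier in 4 of 4 mice, and both were farthest above it in HFD3, where the high tier of Zfp36 holds 4 UMIs and that of Dusp1 holds 7. Ier2 was also above its low tier in 4 of 4 mice (1.15, SE 0.38). Junb was higher in 3 of 4 mice (1.30, SE 0.48) and Fos in 3 of 4 (1.90, SE 0.62, from 21 and 4 UMIs). Atf3 had 6 UMIs in the high and 4 in the low tiers and a fold change of 0.38 (SE 0.97), so its direction cannot be read at this depth. In 2 of its 6 alternatives the sign of Atf3 was negative.

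**Figure D2:**
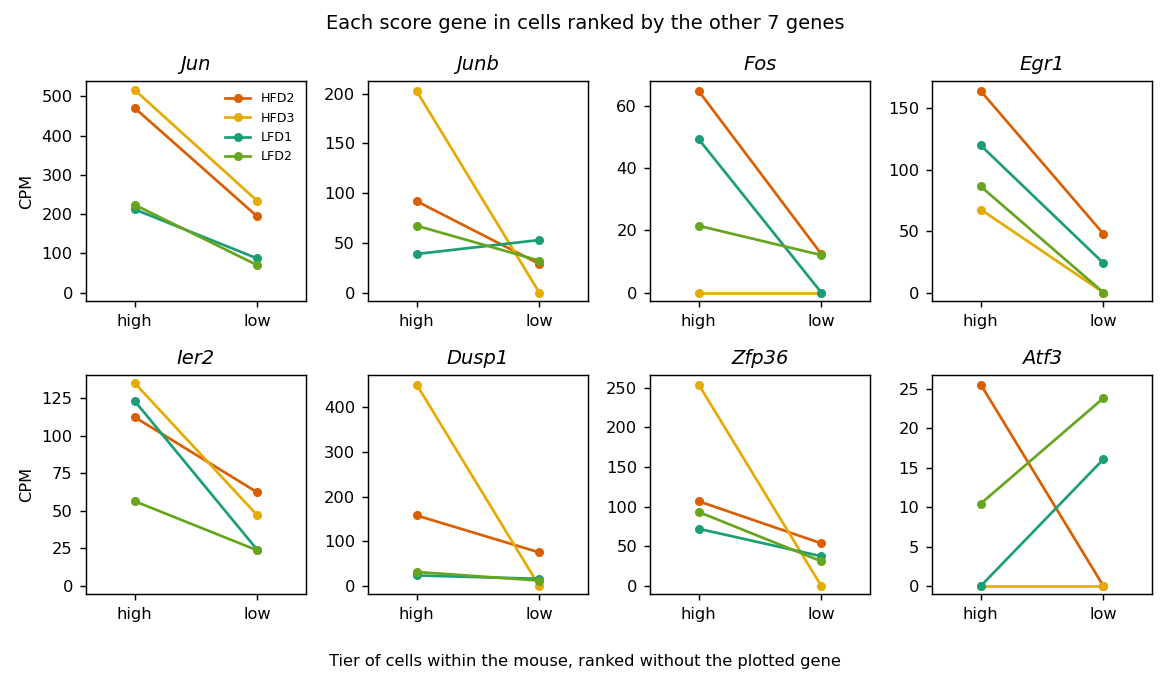
CPM of each score gene (y axis, scales differ) in the high and the low tier (x axis) of 4 mice, with cells ranked by the other 7 genes, so that the plotted gene had no part in the ranking. Jun, Egr1, Ier2, Dusp1 and Zfp36 slope down from high to low in all 4 mice, while Atf3 rests on 6 and 4 UMIs.

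Outside the 8 score genes, no transcript passed the test between high and low tier over the 4 mice. Of 1262 genes tested, 0 were called (0%) at an adjusted p of 0.05, the smallest adjusted p was 0.956, and 45 genes (3.57%) had an unadjusted p under 0.05. Limma-trend on log2(CPM + 10) called 0 with 11 such genes. The median standard error of a log2 fold change was 0.26 and the median margin of a 95% interval 0.53 on either side, before any adjustment over genes. A call needed more than that margin: Sdc2, at 0.87 (SE 0.27), was not called. Without HFD3, 2 genes passed: Glul (log2 fold change 1.06) and Fam25c (-1.23), each with an adjusted p of 0.0326. Per mouse, 74 genes (5.86%) were higher in the high tier of 4 of 4 mice and 82 (6.5%) were lower in 4 of 4, on the log2(CPM + 10) scale.

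The genes with the smallest unadjusted p, named after their values were seen, included members of several hepatocyte pathways, and none of them passed (adjusted p = 0.956 for each). Sdc2, a cell surface proteoglycan, had 200, 270, 215 and 242 CPM in the high tiers of HFD2, HFD3, LFD1 and LFD2, against 119, 43.0, 129 and 121 CPM in the low tiers, with no overlap (log2 fold change 0.87, SE 0.27). In HFD3 these values are 4 UMIs in the high and 1 in the low tier. The share of all tested genes without overlap is not given here. Arg1, the last enzyme of the urea cycle, had 1175, 1419, 1452 and 1526 CPM in the same high tiers, against 1038, 988, 1044 and 1051 CPM in the low tiers, again with no overlap (0.38, SE 0.14). Acadm, the medium-chain acyl-CoA dehydrogenase of fatty acid oxidation, was higher in 4 of 4 mice (0.54, SE 0.20). In the other direction, Ddc, which decarboxylates aromatic amino acids, had 6, 0, 12 and 8 UMIs in the high tiers of HFD2, HFD3, LFD1 and LFD2, against 18, 6, 16 and 17 UMIs in the low tiers (-1.19, SE 0.39), and was lower in 4 of 4 mice. Lipa, the lysosomal acid lipase, was lower in 4 of 4 mice as well (-0.74, SE 0.27). The splicing factor Hnrnpa2b1 was lower in 3 of 4 mice (-0.60, SE 0.22).

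None of the 7 other immediate early and early response genes that could be tested passed. Of 62 genes in that list, 53 had UMIs in either tier, 7 were tested, 0 were called, 6 had fitted values above 0, and the median log2 fold change was 0.30, against 0.00 over all genes tested. The whole list summed to 4354 CPM in HFD2, 5337 in HFD3, 3143 in LFD1 and 3360 in LFD2 in the high tier, against 2987, 2878, 2541 and 3394 CPM in the low tier. HFD2, HFD3 and LFD1 were higher in the high tier and LFD2 was about level. Klf9, a Krüppel-like factor induced by glucocorticoids, had 225, 135, 168 and 285 CPM in the high tiers of HFD2, HFD3, LFD1 and LFD2, against 115, 85.9, 113 and 254 CPM in the low tiers (0.61, SE 0.26). By CPM every mouse was higher, by the least in LFD2. In HFD3 both tiers hold the same count of Klf9 UMIs, so the higher CPM there comes from the smaller total of the high tier. Both HFD3 values lie below the level of 3 UMIs, which is 203 CPM in its high and 129 CPM in its low tier. Tob1, an antiproliferative factor, was also higher in 4 of 4 mice (0.30, SE 0.26). Errfi1, a feedback inhibitor of the EGF receptor, averaged 886 ± 357 CPM in the high and 542 ± 194 CPM in the low tiers (SD, n = 4 mice; 0.38, SE 0.18, 3 of 4 mice). Dnaja1, an HSP40 chaperone, had 0.51 (SE 0.24), Id2, an inhibitor of helix-loop-helix factors, 0.17 (SE 0.22), and Gadd45g -0.13 (SE 0.38). The 46 members seen but too low to test had 572 UMIs in the high and 455 in the low tiers. These were pooled over mice, of 431267 and 472383 UMIs in all. Of the members, 30 were higher in the high tier, 13 higher in the low and 3 equal. The share over all untested genes is not given here. Untested members of other lists leaned the same way: 13 against 7 feedback regulators, 9 against 4 glucocorticoid and fasting genes, 7 against 3 pericentral and 3 against 1 periportal genes.

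Feedback regulators of MAP kinase and NF-kappaB signalling, the brakes that early response genes are known to switch on, summed higher in the high tier of 4 of 4 mice. Of 22 lists, 6 did so, among them acute phase, complement and urea cycle genes. The sum was 1485, 2027, 1236 and 1329 CPM in HFD2, HFD3, LFD1 and LFD2, against 1079, 816, 931 and 1256 CPM in the low tier. Of 30 genes, 26 had UMIs and 3 were tested, with 0 called, 3 above 0 and a median of 0.38. Nfkbia, the inhibitor that holds NF-kappaB in the cytoplasm, had 135, 270, 152 and 209 CPM in the high tiers, against 82.4, 43.0, 130 and 181 CPM in the low tiers (0.55, SE 0.30). Zfp36l1, a relative of Zfp36, was higher in 3 of 4 mice (0.31, SE 0.25), and Errfi1, given above, is the other tested member.

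Genes of the glucocorticoid and fasting response also summed higher in the high tier of 4 of 4 mice, another of the 6 such lists among 22. The sum was 4309, 7094, 5074 and 6818 CPM in HFD2, HFD3, LFD1 and LFD2, against 3493, 5026, 4581 and 6171 CPM in the low tier. Of 27 genes, 26 had UMIs and 12 were tested, with 0 called, 10 above 0 and a median of 0.27. Of the 12, 5 were higher in 4 of 4 mice, against 5.86% of all genes tested, and 2 of these, Klf9 and Tob1, also stand in the list of other immediate early genes. Klf9 counts here with an equal count, of fewer than 3 UMIs, in each tier of HFD3. Tat, tyrosine aminotransferase, had 735, 1081, 830 and 1010 CPM in the high tiers of HFD2, HFD3, LFD1 and LFD2, against 589, 859, 591 and 894 CPM in the low tiers (0.32, SE 0.15). Sds, serine dehydratase, had 0.25 (SE 0.18) and Lpin2, a phosphatidate phosphatase, 0.42 (SE 0.22), both higher in 4 of 4 mice. Pck1, the gluconeogenic enzyme, had 0.14 (SE 0.14) and G6pc 0.25 (SE 0.23), each higher in 3 of 4 mice. Igfbp2 was at -0.21 (SE 0.26) and Cpt1a at -0.06 (SE 0.30).

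Stress lists had medians between -0.12 and 0.14. Heat shock genes and chaperones had 9 tested members, 0 called and a median of 0.09, with Hsp90ab1 at -0.03 (SE 0.13) and Hspa9 at 0.04 (SE 0.18). Genes of ER stress and the integrated stress response had 13 tested members, 0 called and a median of 0.14, and summed higher in 4 of 4 mice, with 6219, 6823, 5648 and 7367 CPM in the high tiers of HFD2, HFD3, LFD1 and LFD2, against 5841, 6143, 5148 and 6956 CPM in the low tiers. Hspa5, the ER chaperone BiP, averaged 1196 ± 227 CPM in the high and 871 ± 396 CPM in the low tiers (SD, n = 4 mice; 0.31, SE 0.16), and Hsp90b1 had 0.22 (SE 0.14). Oxidative stress and NRF2 targets had 15 tested members, 0 called and a median of -0.12, with Gpx1 at -0.03 (SE 0.11) and Fth1 at -0.12 (SE 0.12). Acute phase and inflammation genes had 19 tested members, 0 called and a median of 0.12, with Fgb at 0.17 (SE 0.11) and Hp at -0.02 (SE 0.12). The 2 metallothioneins were too low to test. Actin and dedifferentiation genes had 4 tested members and a median of 0.03: Actb was at 0.35 (SE 0.15) and Krt18 at -0.09 (SE 0.24).

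Genes of hepatocyte function gave medians near that of all genes, and 0 members of any list were called over the 4 mice. Alb, serum albumin, averaged 41278 ± 6603 CPM in the high and 40217 ± 3957 CPM in the low tiers (SD, n = 4 mice; log2 fold change -0.01, 95% interval -0.19 to 0.17), and 35 plasma protein genes had a median of -0.01. Along the lobule axis, periportal genes had 39 tested members with 26 above 0 and a median of 0.11, and 9 of the 39 were higher in 4 of 4 mice, against 5.86% of all genes. Hal, histidine ammonia lyase, had 310, 473, 606 and 472 CPM in the high tiers of HFD2, HFD3, LFD1 and LFD2, against 222, 430, 453 and 362 CPM in the low tiers (0.41, SE 0.19). Uroc1, the next enzyme of histidine breakdown, was at 0.59 (SE 0.25) and Arg1, given above, also belongs to this list. Cyp2f2, a periportal cytochrome, was at 0.22 (SE 0.15), each of these higher in 4 of 4 mice. Other periportal members went the other way, among them Apoa4 at -0.47 (SE 0.24), Gls2 at -0.22 (SE 0.24) and Cps1 at -0.07 (SE 0.14). Fbp1, at -0.08 (SE 0.12), was lower in 4 of 4 mice. Pericentral genes had 27 tested members with 10 above 0 and a median of -0.11, with 1 higher in 4 of 4 mice. Cyp2e1, a pericentral cytochrome, was at -0.13 (SE 0.14), Mgst1 at -0.03 (SE 0.10) and Glul at 1.01 (SE 0.37). The summed lists do not show 1 direction: the periportal sum was higher in the high tier of 2 of 4 mice and the pericentral sum of 1 of 4.

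Metabolic lists were likewise without calls. Urea cycle and amino acid catabolism had 41 tested members and a median of 0.07, with Gnmt at 0.19 (SE 0.12) and Mat1a at 0.07 (SE 0.13). Drug and steroid metabolism had 45 and a median of -0.11, with Ces1c at -0.15 (SE 0.13) and Cyp3a11 at -0.13 (SE 0.17). Fatty acid oxidation and ketogenesis had 26 and a median of -0.06, with Fabp1 at -0.16 (SE 0.10) and Acaa1b at -0.05 (SE 0.13). Lipid synthesis and lipid droplet genes had 17 and a median of 0.07, yet their sum was lower in the high tier of 4 of 4 mice. Scd1, the stearoyl-CoA desaturase and among the most abundant of that list, had 1170, 811, 1851 and 1965 CPM in the high tiers of HFD2, HFD3, LFD1 and LFD2, against 1767, 1890, 2007 and 1993 CPM in the low tiers (-0.33, SE 0.14). In these values the difference was wider in the HFD than in the LFD mice, and the high tier of HFD3 holds 12 Scd1 UMIs. By limma voom Scd1 was not called within HFD (adjusted p = 0.165) or for the difference between the diets (adjusted p = 0.994). Thrsp, a lipogenic regulator, was at 0.12 (SE 0.17). Complement and coagulation had 36 tested members and a median of 0.01, with C3 at -0.05 (SE 0.12), and major urinary proteins had 14 and a median of -0.06, with Mup20 at 0.04 (SE 0.10) and Mup3 at -0.05 (SE 0.09). The growth hormone and STAT5 axis had 5 and a median of -0.04, with Serpina3k at -0.04 (SE 0.11) and Igf1 at -0.07 (SE 0.16). RNA processing factors had 11 and a median of 0.17, with Rbm25 at -0.02 (SE 0.21), and translation factors 13 and a median of 0.02, with Eef1a1 at 0.05 (SE 0.17) and Eif5 at 0.37 (SE 0.20).

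**Figure D3:**
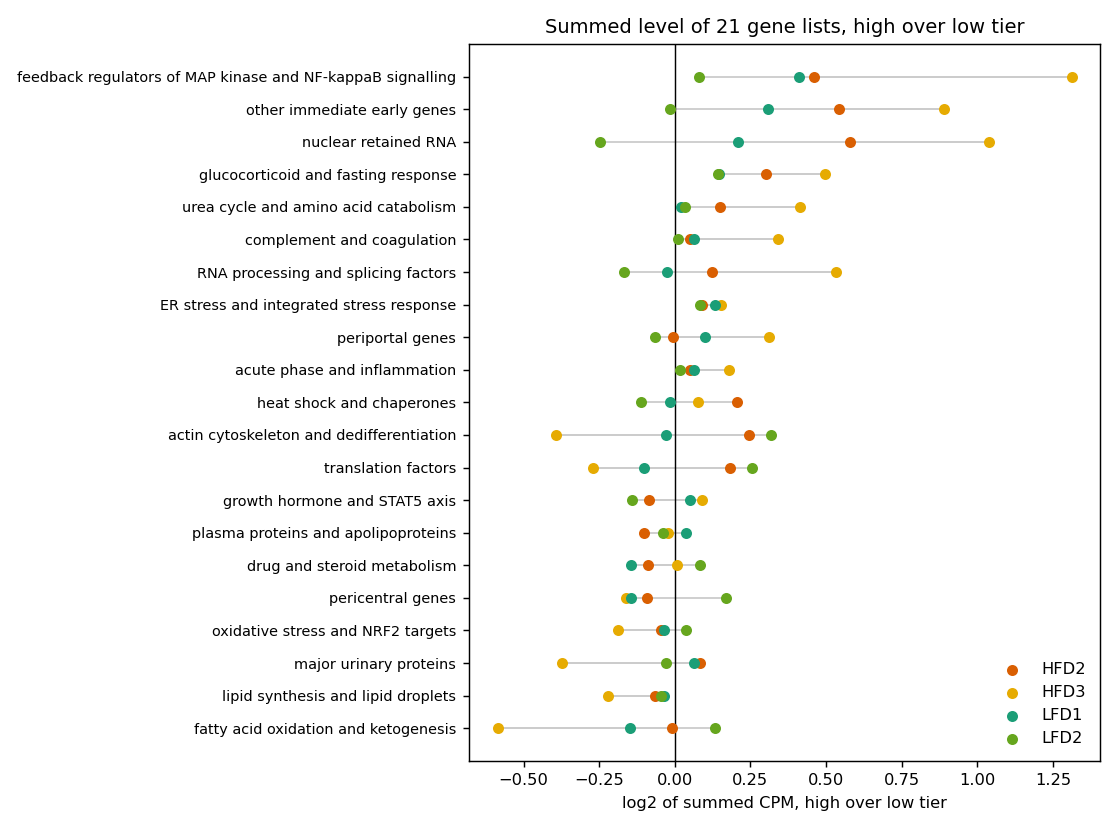
log2 of the summed CPM in the high over the low tier (x axis) for 21 gene lists (y axis), 1 point per mouse. Feedback regulators, the glucocorticoid and fasting response, ER stress, acute phase, complement and urea cycle lie right of 0 in all 4 mice, lipid synthesis lies left of 0 in all 4, and HFD3 is often the farthest point.

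Within each diet few or no genes separated the tiers. In the HFD mice 3 of 1262 genes (0.238%) were higher in the high tier and 0 lower, with 85 genes at an unadjusted p under 0.05. In the LFD mice 0 of 1262 (0%) were called, with 14 genes at an unadjusted p under 0.05. The difference between the diets, tested as an interaction, was called for 0 genes (0%), with 33 at an unadjusted p under 0.05, so a gene called in HFD and not in LFD is not shown to differ between them. Without LFD1 or without LFD2, 0 genes were called in HFD, without HFD3 9 were, and without HFD2, which leaves the 8 cells per tier of HFD3, 38 were. The interaction then had 20 calls without HFD2 and 2 without HFD3. Limma-trend called 0 in HFD, with 88 genes at an unadjusted p under 0.05, and 0 in LFD and for the interaction. Across the 1262 genes the fold changes of the diets were almost unrelated (Pearson r = 0.07 and Spearman rho = 0.07, across genes, which are not independent replicates), and 51.3% had the same sign. The spread of fold changes was wider in HFD (SD 0.42) than in LFD (SD 0.34). The median standard error of a single fold change, 0.38 in HFD and 0.39 in LFD, was near these spreads. An r near 0 can therefore arise from error alone and does not show that the contrast differs between the diets. Other immediate early genes had a median of 0.56 in HFD and 0.22 in LFD, with 6 of 7 above 0 in each diet, and glucocorticoid and fasting genes 0.31 in HFD and 0.22 in LFD.

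**Figure D4:**
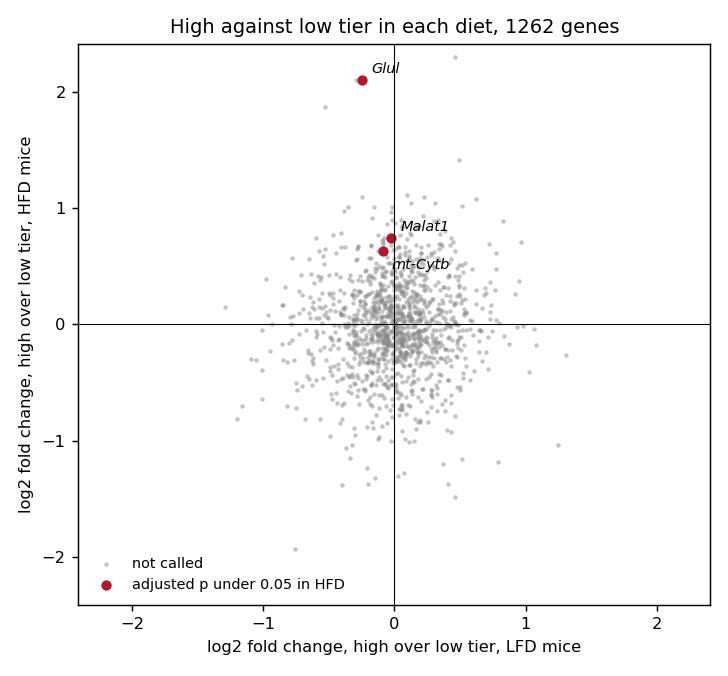
log2 fold change of high over low tier in the HFD mice (y axis) against the LFD mice (x axis) for 1262 genes, with the 3 genes called in HFD in red. The cloud has no slope (r = 0.07), with a spread near the standard error of single fold changes. Glul, Malat1 and mt-Cytb lie above 0 in HFD and just below 0 in LFD.

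The 3 calls in HFD rest on different mice. Glul, glutamine synthetase, is known for its restriction to the hepatocytes next to the central vein. It had 75 UMIs (375 CPM) in the high tier of HFD2 and 0 in that of HFD3, against 18 UMIs (74.2 CPM) and 0 in the low tier. In the LFD mice it had 16 (128 CPM) and 20 UMIs (220 CPM) in the high tier, against 32 (259 CPM) and 8 UMIs (96.6 CPM) in the low tier. Of the 2 ranked HFD mice only HFD2 had Glul UMIs in these tiers, and the LFD mice go opposite ways. A count of 0 in HFD3 allows up to 203 CPM in its high and 129 CPM in its low tier (3 counts). Of the 75 UMIs, 65 lay in 3 cells, and cells with a Glul UMI were 13 of 69 in the high and 9 of 69 in the low tier. The log2 fold change was 2.10 in HFD (SE 0.40, adjusted p = 1.64e-04) and -0.25 in LFD (SE 0.41), and their difference, 2.34 (SE 0.57), had an adjusted p of 0.0550. The HFD call was made in 7 of 14 alternatives. Among those without the call, leaving out HFD2 leaves no Glul UMI in that diet, so it gives no fold.

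Malat1, a long noncoding RNA kept in the nucleus, had 8619 CPM in HFD2 and 26348 CPM in HFD3 in the high tier, against 5697 and 12544 CPM in the low tier. In the LFD mice it had 6781 and 9113 CPM in the high tier, against 5868 and 10990 CPM in the low tier. Both HFD mice were higher in the high tier, and the LFD mice went opposite ways. The log2 fold change was 0.74 in HFD (SE 0.14, adjusted p = 1.64e-04) and -0.02 in LFD (SE 0.14), with an adjusted p of 0.105 for the difference. In HFD3, 283 of the 390 UMIs of the high tier came from 3 of its 8 cells. The mean deposited log value per cell, which weighs cells equally, was 4.35 and 5.22 in the high tiers of HFD2 and HFD3, against 3.89 and 4.86 in the low tiers. Ranked within classes of like depth, Malat1 remained called in HFD (0.63, adjusted p = 0.0201). Thinned to 1000 UMIs per cell it was 0.65 and not called (adjusted p = 0.449). Over 17 alternatives it was above 0 in all and called in 9, with adjusted p between 1.13e-15 and 0.637. Neat1, the other tested nuclear retained RNA, was at 0.04 over the 4 mice (SE 0.24).

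mt-Cytb, cytochrome b of the mitochondrial genome, had 5504 CPM in HFD2 and 12971 CPM in HFD3 in the high tier, against 4692 and 4725 CPM in the low tier. In the LFD mice it had 6589 and 5380 CPM in the high tier, against 6103 and 6799 CPM in the low tier. HFD3 holds most of the difference, the same mouse whose mitochondrial share was 7.20% in the high and 4.59% in the low tier. The part of that share in the result was not tested. The log2 fold change was 0.63 in HFD (SE 0.16, adjusted p = 0.0229) and -0.09 in LFD (SE 0.15), with an adjusted p of 0.262 for the difference. Without HFD3 it was 0.19 (adjusted p = 0.562), and ranked within depth classes 0.39 (adjusted p = 0.421). It was called in 4 of 17 alternatives, with adjusted p between 3.25e-07 and 0.961. H13, a signal peptide peptidase, came after Glul and Malat1 by the p of the diet difference and was not called: 205 and 203 CPM in the high tiers of HFD2 and HFD3, against 53.6 and 43.0 CPM in the low tiers, and 120 and 110 CPM in the high tiers of LFD1 and LFD2, against 162 and 181 CPM in the low tiers.

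**Figure D5:**
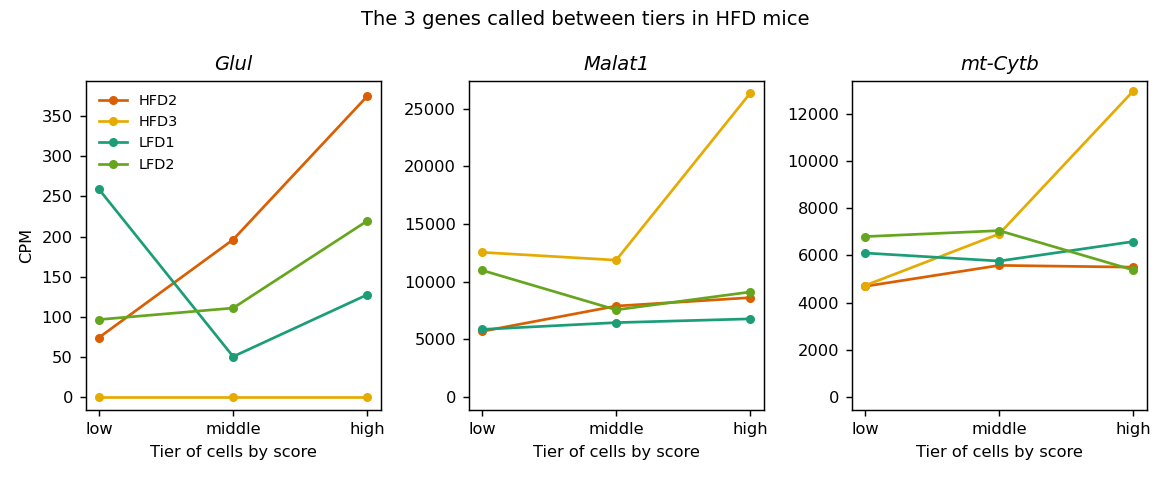
CPM (y axis) of Glul, Malat1 and mt-Cytb in the low, middle and high tier (x axis) of each mouse. In HFD the Glul UMIs lie in HFD2 alone, the higher level of mt-Cytb lies mostly in HFD3, and Malat1 is higher in the high than in the low tier of both HFD mice.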

How the data were processed

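Hepatocytes of 2 LFD and 3 HFD mice were profiled by Drop-seq, per the labels. STAR 2.6.0a and mm10 are named in the submitters' processing notes, and the cell filter, the annotation, and the handling of shared reads, strand and doublets were not given in the sources used here. Deposited by the authors, the table holds the natural log of 1 plus UMIs per 10000 for 18018 genes and 454 cells, as its values show. After back-transformation, 100% of values above 0 were whole multiples of a cell's smallest step within 0.001, so whole UMIs were recovered. No barcode was shared between libraries (0 shared).

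Cells were assigned to mice by column prefix, scored, ranked and summed per mouse and tier (14802 to 242746 UMIs per sum). Sums without the score genes were tested by limma voom (limma 3.58.1, R 4.3.3) with trimmed-mean factors and the mouse as a block, two-sided, with Benjamini-Hochberg adjusted p under 0.05. The mouse block pairs both tiers of 1 animal. Genes needed 93.2 CPM (10 UMIs at the median sum) in 4 of 8 sums and 15 UMIs in total, which left 1262. The diet model, with a tier-by-diet term, left 2 residual degrees of freedom before moderation. Folds are log2 of high over low. Per-mouse ratios of genes add 10 CPM. Replicates are mice, male littermates per the labels, which do not say how many litters they came from. Binomial intervals and the limits for counts of 0 cover counting error only, while intervals of fold changes come from limma's spread between sums. No doublet caller was run. Python 3.11.15 and SciPy 1.17.1 made the exact tests. Text names follow a set rule: the score genes, genes past the threshold, up to 2 of highest CPM per list, and 3 genes of the interaction, and other genes were named after their values were seen. Members and lists were chosen with earlier results of these data known. Alternatives were other filters, tests, scores, ties, depth matching, shares of cells, left-out cells and left-out mice. One tested member of the list of other immediate early genes is not reported here.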

Additional observations from a re-analysis of the deposited data

Results flagged for a closer look

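Among 78 values examined over the 4 mice, 11 had 1 mouse far from the other 3, and chance flags about 1 in 20 such groups. In 10 of the 11 that mouse was HFD3, whose tiers hold 8 cells each and the fewest UMIs. As log2 of high over low tier (CPM + 10 for single genes), HFD3 stood at 0.64 for Hspa9, 0.044 for Gpx1, -2.002 for Neat1, -2.84 for Cyp3a11, 2.40 for Sdc2 and -4.74 for Ddc. Ranked by the other 7 score genes, it stood at 5.53 for Dusp1 and 4.72 for Zfp36. For summed lists it stood at 0.34 for complement and coagulation and -0.22 for lipid synthesis and lipid droplets. LFD2 stood apart for Thrsp, at 0.65, with the other mice between -0.19 and -0.08. The part that the small size of HFD3 has in these values was not tested.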

How the results depend on the processing

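Over the 4 mice the count of called genes was 0 in the main test and in 17 of 19 alternatives, among them no trimmed-mean factors, depth classes, thinning to 1000 UMIs, reversed ties and every cell with a score of 0 on the low side (chosen after seeing the data). It was 10 with no filter on low genes. Without the replicate block (mouse not a term) it was 0. The labels pair no LFD mouse with an HFD mouse, and the mouse numbers only count replicates within a diet. No paired analysis between diets was therefore possible. Leaving out each mouse gave 0 to 2 over the 4 mice, 0 in LFD, 0 to 38 in HFD and 0 to 20 for the interaction, where the highest values in HFD and for the interaction came without HFD2 and that over the 4 mice without HFD3. Without HFD2, 8 cells per tier of HFD3 stand for the diet and the lone mouse is assumed to vary like the others. In LFD the count was 4 with no filter and 1 with a split at the median. In HFD, 3 in the main test, it was 0 with limma-trend, a minimum of 30 UMIs, thinning, tiers of 1 in 4 cells and without the cells of highest UMIs or mitochondrial share, 1 with a score of log values and without cells with non-hepatocyte UMIs, 9 with no filter, 6 with a split at the median and 13 with all zero cells. For the interaction, 0 in the main test, it was 2 without trimmed-mean factors, 10 with no filter, 1 with a score of log values and with reversed ties, 7 with a split at the median and 3 with all zero cells. The cause was not tested.

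Of the score genes ranked by the other 7, 2 were called, 2 in depth classes, 0 with limma-trend, and 0 to 1 without 1 mouse. The log2 ratio of UMIs per cell was -0.16, 0.15 with a split at the median, and -0.27 to -0.01 without 1 mouse. Among values of single genes, 861 kept direction and call, 107 uncalled values changed sign, 16 gained and 37 lost a call, and 0 called values changed sign. Depth limits these results: 7 of the 8 score genes fall under the filter on low genes.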
